A study of Mus musculus with 10 samples.

Results

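The 57 genes described here encode the machinery that carries proteins between the endoplasmic reticulum (ER) and the Golgi apparatus. They were taken as a fixed list by function from 53801 genes in the count table, and 56 of them were among the 14336 genes with enough counts to be tested. They fall into 7 roles, which are the COPII coat with the ER exit sites (17 genes), the cargo and retrieval receptors (10), the p24 proteins (7), the COPI coat (9), the ARF GTPases with their regulators (4), the Golgi tethers (4) and the SNAREs (6). RNA was sequenced from AtT20/D16v-F2 cells, a mouse corticotroph line derived from a pituitary tumour. Cells of the control line were stably transduced with a lentivirus that expressed a non-targeting shRNA (5 libraries). Cells of the other line were stably transduced with a lentivirus that expressed a *Creb3l1* shRNA (5 libraries). The comparison asks what RNA changes with knockdown of *Creb3l1*, a transcription factor of the CREB3 family that is cleaved in the Golgi to free its active part. Both lines therefore carried a lentivirus and an shRNA. Each shRNA was represented by a single stable line, so an effect of the shRNA and any other difference between these lines cannot be told apart. The study describes its replicates as biological, but the labels do not say how the 5 libraries of a single line were separated, and p-values measure only the spread between these libraries.

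Secretory proteins leave the ER in vesicles with a COPII coat, which assembles when the GTPase SAR1 is loaded with GTP at ER exit sites scaffolded by SEC16. Vesicles with a COPI coat, which is recruited by ARF1, return receptors, SNAREs and escaped ER chaperones from the Golgi. Tethers and SNAREs then dock and fuse the vesicles. In an endocrine cell such as a corticotroph all prohormone passes along this route before it is sorted into granules.

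The depth of the libraries was between 17420698 and 22205107 counts on genes. *Creb3l1* itself was lower in every knockdown library, with normalised counts of 3531 to 3864 in the control line and 1014 to 1159 in the *Creb3l1* shRNA line (log2 fold change -1.76, SE 0.036, edgeR quasi-likelihood test, adjusted p = 2.1e-33). Corticotroph markers were present in both lines, although the corticotropin-releasing hormone receptor *Crhr1* was at 17.1 to 43.6 normalised counts in the 10 libraries. *Pomc* was at 126259 to 137530 in the control line and 87911 to 95085 in the knockdown line (log2 fold change -0.51, edgeR adjusted p = 1.2e-16). *Tbx19* (-0.27, edgeR adjusted p = 1.2e-13) and *Pcsk1* (-0.46, 1.2e-19) were also lower, and *Neurod1* was higher (0.62, 3.2e-19), each without overlap between the lines. By quantitative PCR the study reported no change of *Pomc* mRNA in its knockdown lines. Of 20 markers of other pituitary, stromal and blood cells 9 were at 0 in all libraries, and the summed normalised count of the 20 was 1178 to 1503 in the control line, most of it from *Col1a1*, *Col1a2* and *Pcsk2*. In the knockdown line that sum was 1296 to 2069, overlapping with the control line, and the part of other cell types in the results was not tested. Of these 20 markers, *Pcsk2*, a prohormone convertase, was at 268 to 302 normalised counts in the control line and 318 to 363 in the knockdown line (edgeR adjusted p = 0.0016), and *Pecam1*, an endothelial marker, was lower (log2 fold change -1.08, edgeR adjusted p = 0.0063). Replicate 3 of the control line stood apart by a TMM scaling factor of 0.953, and without it 21 members were called, 10 higher and 11 lower.

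Most of these genes changed little. Of the 56 genes tested, 21 passed an adjusted p of 0.01 (37.5%), where 40.7% of all genes tested did, and 11 were higher and 10 lower in the *Creb3l1* shRNA line. Over all genes 20.6% were higher and 20.1% lower. The median log2 fold change of the members was -0.0077 and the median of its size was 0.073, beside -0.0025 and 0.154 over all genes. For 15 members no library of either line entered the range of the other line, as was the case for 36.0% of all genes. These genes are abundant, and 41 of the 56 lay in the highest quartile of genes by mean count, in which counting error is smallest. In that quartile 12 of the 41 were called (29.3%), while 56.0% of all genes there were called.

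**Figure D1:**
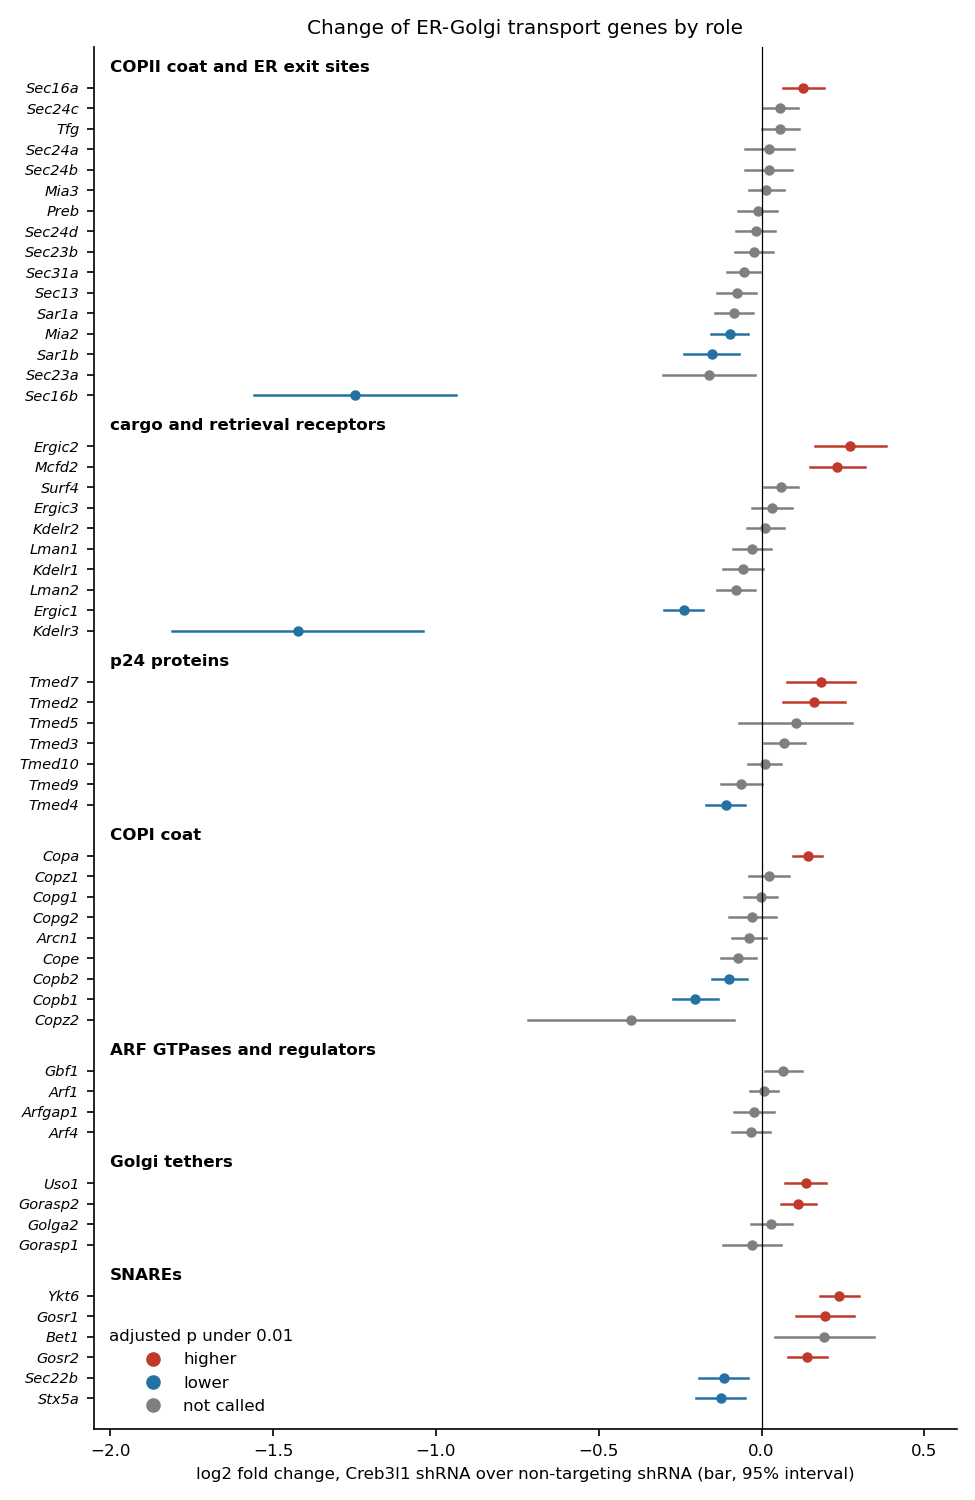
Log2 fold change of each of the 56 members tested (points) with its 95% interval (bars), grouped by role, in the Creb3l1 shRNA line over the non-targeting line with 5 libraries each. Red and blue mark members past an adjusted p of 0.01. *Kdelr3* and *Sec16b* lie beyond -1.2, and 19 of the 21 called members lie within 0.3 of 0.

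The changes that passed the test were small, with 19 of the 21 below 0.3 on the log2 scale. Only *Kdelr3* and *Sec16b* were called at 1.5-fold or more, which 7.73% of all genes were. Of the 35 members not called, 31 had a 95% interval that lay within 0.2 log2 of no change. The widest interval was that of *Copz2*, which reached -0.72. Summed over all 57 members, the level per kb of exon was 38613 ± 270 normalised counts in the control line and 38780 ± 468 in the knockdown line (SD, n = 5), a difference of 0.435% with overlap between the lines. In RNA from a whole culture, fewer cells that express a gene and less RNA per cell cannot be told apart.

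The number of members called lower was sensitive to the libraries used. It was 5 without non-targeting shRNA replicate 5 and 6 without *Creb3l1* shRNA replicate 3, and when libraries were scaled by their totals alone it was 5, beside 11 higher. When the GC content and transcript length of genes entered as offsets in each library, 14 members were higher and 8 lower. No called member changed direction in any of the 18 other fits. Of the 21 calls 12 held in each of these fits, 8 of them higher (*Ykt6*, *Ergic2*, *Mcfd2*, *Gosr1*, *Gosr2*, *Copa*, *Uso1* and *Gorasp2*) and 4 lower (*Kdelr3*, *Sec16b*, *Ergic1* and *Copb1*).

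**Figure D2:**
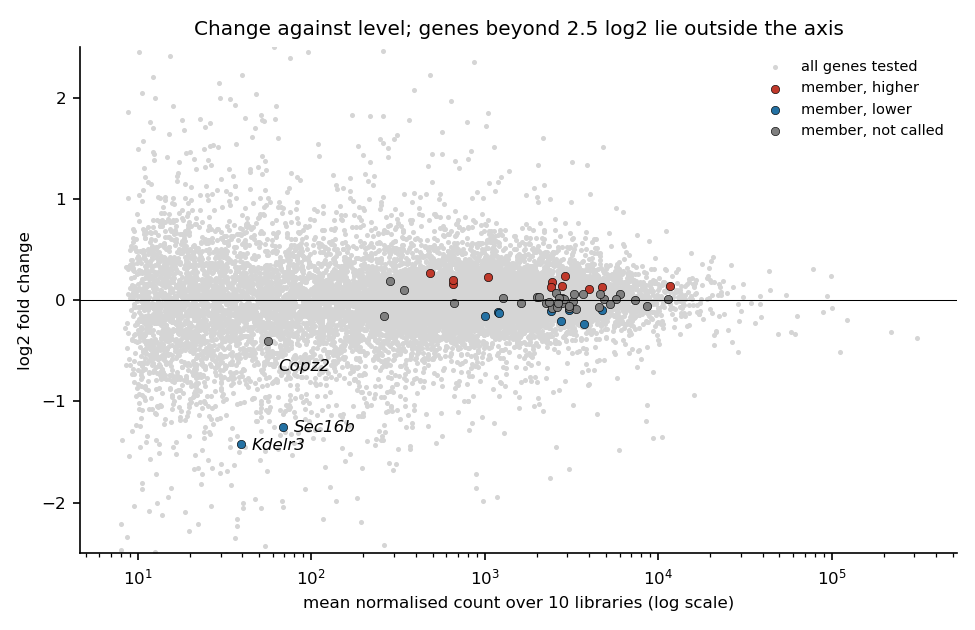
Log2 fold change (vertical axis) against mean normalised count over the 10 libraries (horizontal log axis) for all 14336 genes tested (grey) and the 56 members (coloured by call). Most members lie at the right within 0.3 of 0, and *Sec16b*, *Kdelr3* and *Copz2* are the 3 members in the lowest quartile of counts.

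*Kdelr3* and *Sec16b* are minor paralogues of abundant genes, and both fell by more than 2-fold. *Kdelr3* (ENSMUSG00000010830, chr15:79516411-79527739, plus strand, GRCm38) encodes a receptor that binds the KDEL tail of ER chaperones in the Golgi and returns them to the ER. Its normalised count was 44.3, 50.9, 64.8, 68.5 and 60.3 in non-targeting replicates 1 to 5, and 25.7, 19.3, 14.9, 19.0 and 27.3 in *Creb3l1* shRNA replicates 1 to 5. Every knockdown library lay below every control library, and the log2 fold change was -1.42 (SE 0.19, 95% interval -1.81 to -1.04, edgeR adjusted p = 3.7e-08). *Sec16b* (ENSMUSG00000026589, chr1:157506728-157568425, plus strand) encodes the shorter of the SEC16 scaffold proteins of ER exit sites. Its normalised count was 102.6, 94.3, 96.6, 96.7 and 93.3 in the control libraries and 27.6, 53.5, 26.6, 43.6 and 51.8 in the knockdown libraries. The knockdown libraries were all below the controls but spread more widely, with an SD of 12.9 about a mean of 40.6 against an SD of 3.59 about 96.7. The log2 fold change was -1.25 (SE 0.15, 95% interval -1.56 to -0.94, edgeR adjusted p = 5.3e-09). Leaving out any library kept *Kdelr3* between -1.53 and -1.32 and *Sec16b* between -1.36 and -1.13, with each called throughout. Both lie in the lowest quartile of genes by count, in which 16.5% of all genes were called at 1.5-fold or more.

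No fall was called for their abundant paralogues. *Kdelr2* had 2932, 2902, 2869, 2839 and 2716 normalised counts in the control libraries and 2816, 2939, 2912, 2884 and 2825 in the knockdown libraries. The lines overlapped throughout, and the log2 fold change of 0.01 had a 95% interval of -0.05 to 0.07. *Kdelr1*, the third KDEL receptor, was at 3003 to 3321 in the control line and 2879.5 to 3088 in the knockdown line (log2 fold change -0.06, adjusted p = 0.12). *Sec16a*, the larger scaffold, had 4766, 4524, 4356, 4320.2 and 4629.5 normalised counts in the control libraries and 4782, 5326, 4941, 4745 and 4897 in the knockdown libraries. It was higher on average with overlap between the lines (log2 fold change 0.13, SE 0.031, edgeR adjusted p = 7.1e-04). That call was lost with the GC and length offsets, where the value was 0.05.

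**Figure D3:**
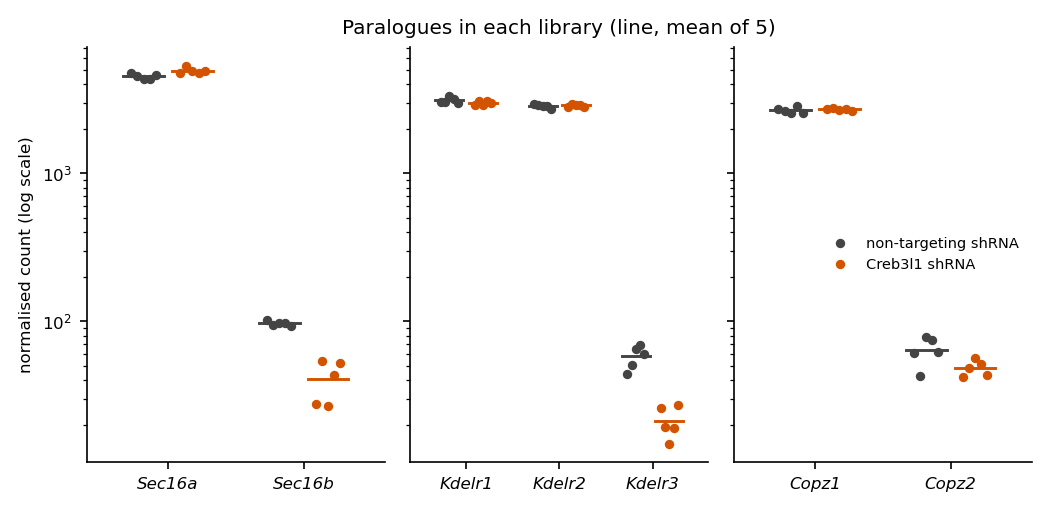
Normalised count (log axis) of the SEC16 scaffolds, the KDEL receptors and the zeta subunits of COPI in each of the 5 control (grey) and 5 Creb3l1 shRNA libraries (orange), with the mean of 5 as a line. *Sec16b* and *Kdelr3* separate the lines while *Sec16a*, *Kdelr1*, *Kdelr2* and *Copz1* lie close together in both.

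The log2 ratio of 2 genes of a pair within a library does not depend on how libraries are scaled. The ratio of *Kdelr2* to *Kdelr3* was 5.36 to 6.03 in the control libraries and 6.67 to 7.56 in the knockdown libraries, which differ by 1.45 on average (exact permutation p = 0.0079, two-sided and the lowest value possible with 5 against 5 libraries, or 0.024 after adjustment over 12 pairs). Per kb of exon, *Kdelr3* held 2.56% ± 0.47 of the sum of this pair in the control line and 0.95% ± 0.24 in the knockdown line (SD, n = 5). The ratio of *Sec16a* to *Sec16b* rose from 5.47 to 5.63 in the control libraries to between 6.55 and 7.51 in the knockdown libraries, by 1.43 on average (exact permutation test, adjusted p = 0.024). *Sec16b* held 3.51% ± 0.15 of that pair per kb in the control line and 1.37% ± 0.40 in the knockdown line. Both genes were a small share of their pairs in the control line already.

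Among the 12 pairs tested, 3 more passed with smaller shifts. The ratio of *Sec24c* to *Sec24d* differed by 0.08, that of *Mia3* to *Mia2* by 0.11 (both adjusted p = 0.024, exact permutation test) and that of *Sec23a* to *Sec23b* by -0.13 (adjusted p = 0.038). The last was lost on leaving out any of 8 of the 10 libraries, with adjusted p of 0.063 to 0.076 (exact permutation test). The exceptions were non-targeting replicate 3 and *Creb3l1* shRNA replicate 4. The other 7 pairs did not pass. For *Sec24a* and *Sec24b* the 95% interval of the difference was -0.10 to 0.10, and for *Copg1* and *Copg2* it was -0.06 to 0.11. The pairs *Sar1a* with *Sar1b* (0.07), *Kdelr1* with *Kdelr2* (-0.07) and *Arf1* with *Arf4* (0.04) had differences of similar size. *Copz1* to *Copz2* differed by 0.40 (adjusted p = 0.095, exact permutation test) and passed without non-targeting replicate 2 (adjusted p = 0.038). *Gorasp1* to *Gorasp2* differed by -0.14 (adjusted p = 0.063, exact permutation test) and passed without *Creb3l1* shRNA replicate 3 (adjusted p = 0.038). The pair *Sec31a* with *Sec31b* was not tested because *Sec31b* had 4 to 8 counts in the control libraries and 0 to 6 in the knockdown libraries.

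In the promoters of *Kdelr3* and *Sec16b* the same 8-base word was found. TGACGTGG is the core of the unfolded protein response element, a word that basic leucine zipper factors of the ER stress response bind, and it contains GACGTG, the G-box word of the *Pcsk1* promoter in the study. Promoter windows of 250 bases before to 50 bases after the start of a gene were taken from RefSeq (GRCm38.p6) and matched 52 of the 57 members. Both strands were searched. The windows of 30 bases around the word are shown for the 9 members that hold it, with the word in capitals and each read 5′ to 3′ on the strand that holds it. Windows around the other words counted below are not shown.
Kdelr3: tggccgcgcggTGACGTGGcggggcggcca
Sec16b: ttctgtgtggcTGACGTGGcacggcagttt
Copb1: aagtccttggcTGACGTGGaagggggcggg
Copb2: ggccaacccacTGACGTGGaacttccggga
Stx5a: tcctaactcggTGACGTGGctgctgcgcca
Sec23a: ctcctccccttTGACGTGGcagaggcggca
Sec24d: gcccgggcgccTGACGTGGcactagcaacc
Gbf1: tgtcagctcacTGACGTGGtaactagcctc
Arf1: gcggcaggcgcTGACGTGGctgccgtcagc
Positions in brackets are those of the windows of 30 bases, on the strand that is printed, which need not be the strand of the gene. The word began 30 bases before the start of *Kdelr3* (chr15:79516367-79516396, minus strand) and 44 bases before that of *Sec16b* (chr1:157506741-157506770, plus strand). In *Copb1* (chr7:114254690-114254719, plus strand) it began 28 bases before the start, and in *Copb2* (chr9:98563713-98563742, minus strand) 7 bases before. It began 26 bases before the start of *Sec24d* (chr3:123267459-123267488, plus strand) and 12 before that of *Gbf1* (chr19:46152535-46152564, minus strand). In *Sec23a* (chr12:59011993-59012022, minus strand) it began 7 bases after the start. In *Stx5a* (chr19:8741422-8741451, minus strand) it began 10 bases after the start, and a further copy that is not shown began 40 bases after it. Distances run to the first base of the word along the gene and are counted from the RefSeq start, which can differ from the GENCODE start used for the gene positions. By the GENCODE positions the word lay inside the gene in 8 of the 9 members, the exception being *Kdelr3*. *Arf1*, *Sec16b* and *Stx5a* have 2 windows each in RefSeq. In *Arf1* the word (chr11:59228228-59228257, minus strand) was in both, 84 bases before the first start and 22 after the second, while in *Sec16b* and *Stx5a* the other window lacked it.

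The 9 of 52 members with this word compare with 0.714% of the 27025 genes with a RefSeq promoter window, and with 1.04% of the 10382 of these genes that were tested. All 9 were tested. Of them *Kdelr3*, *Sec16b*, *Copb1*, *Copb2* and *Stx5a* were lower, none was higher in the main edgeR fit or by DESeq2, and *Sec23a*, *Sec24d*, *Gbf1* and *Arf1* were not called. With the GC and length offsets *Arf1* was called higher (log2 fold change 0.09, edgeR adjusted p = 4.4e-05), so 5 of the 9 were lower and 1 was higher. With library totals *Copb2* (edgeR adjusted p = 0.023) and *Stx5a* (0.019) lost their calls, which left 3 of the 9 lower. At an unadjusted p under 0.05, 6 were lower and 1 was higher. Of the 42 other members with a window that were tested, 5 were lower and 9 higher. Over all tested genes that hold the word, the members included, 22 were lower, 29 higher and 57 not called (20.4% lower, beside 21.3% of those without it). The shorter word GACGTG was in the windows of 22 of 52 members and of 7.15% of all genes, or 10.8% of the genes tested. Of the 22 members with it 3 were higher, 6 lower and 13 not called, and of all tested genes with it 22.5% were higher and 20.1% lower. CACGTG, the palindromic form of the G-box core, was in 5 members and in 8.09% of all genes. The cAMP response element TGACGTCA was in the windows of *Cope* and *Gosr2* and of 2.03% of all genes. A match is a description of the window and does not show that a factor binds there.

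**Figure D4:**
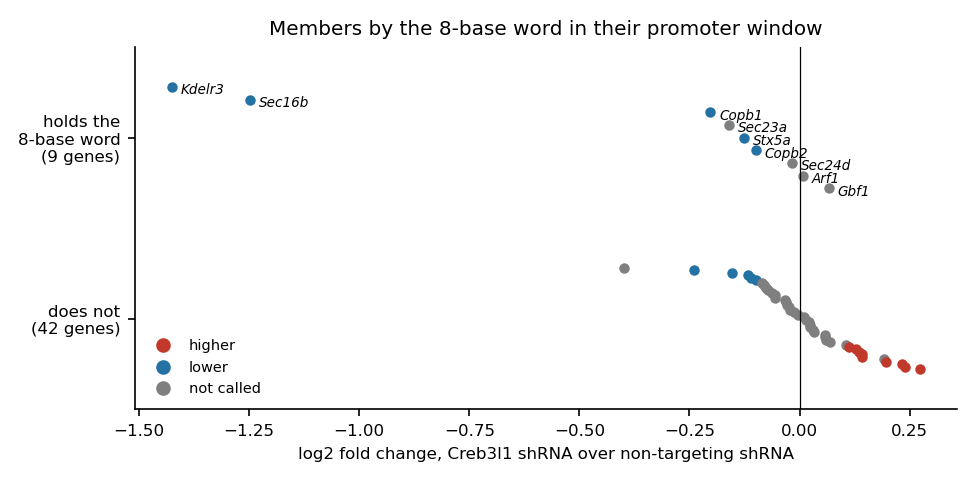
Log2 fold change (horizontal axis) of the 51 members tested with a RefSeq promoter window, split by whether the window holds the 8-base word of the unfolded protein response element and coloured by call. Of the 9 with the word 5 are lower (3 with library totals) and none is higher (1 with the GC and length offsets), and of the 42 without it 5 are lower and 9 higher.

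Of the 16 COPII coat and ER exit site genes tested, 4 were called (25%, beside 40.7% of all genes), with *Sec16a* higher and *Sec16b*, *Sar1b* and *Mia2* lower. *Preb*, the exchange factor that loads SAR1 with GTP, was at 3226 ± 28.8 normalised counts in the control line and 3199 ± 160 in the knockdown line (log2 fold change -0.01), and shares 21.8% of its exon bases with *Abhd1* on the opposite strand. Of the SAR1 GTPases that start coat assembly, *Sar1b* was at 971 to 1115 in the control line and 909 to 996 in the knockdown line (log2 fold change -0.15, SE 0.041, edgeR adjusted p = 0.0018). The lines overlapped, and the call was lost without non-targeting replicate 5 or *Creb3l1* shRNA replicate 3, with edgeR adjusted p of 0.0101 and 0.0112, and with the GC and length offsets (0.058). *Sar1a* had a log2 fold change of -0.08 (adjusted p = 0.011) and was called without non-targeting replicate 3 (0.0050) or *Creb3l1* shRNA replicate 1 (0.0083) in the edgeR test.

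The inner coat, which binds cargo, comprised *Sec23a*, *Sec23b* and the SEC24 genes. *Sec23a*, the less abundant SEC23 gene at 57.1 normalised counts per kb against 362 for *Sec23b*, had a log2 fold change of -0.16 (edgeR adjusted p = 0.053), and *Sec23b* one of -0.02. The 4 SEC24 genes, *Sec24a*, *Sec24b*, *Sec24c* and *Sec24d*, lay between -0.02 and 0.06. The outer coat genes *Sec13* (-0.08, edgeR adjusted p = 0.029) and *Sec31a* (-0.06, 0.060) were not called, and *Sec31a* was called without *Creb3l1* shRNA replicate 2 (0.0062). *Tfg*, which organises exit sites, had a log2 fold change of 0.06 (edgeR adjusted p = 0.087) and was called with the GC and length offsets, at 0.10. *Mia3*, the TANGO1 receptor that exports bulky cargo such as collagen, stood at 0.02 and its partner *Mia2* at -0.10. *Mia2* did not overlap between the lines (3122 to 3227 against 2881 to 3072, edgeR adjusted p = 0.0027). Its call was lost without non-targeting replicate 2 or 5 or *Creb3l1* shRNA replicate 3, with edgeR adjusted p of 0.0104 to 0.0151, and with library totals (0.028).

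Of the 10 cargo and retrieval receptors 4 were called, a share close to that of all genes (40.7%). *Ergic2*, an ER-Golgi intermediate compartment protein, rose with 448, 438, 428, 430.0 and 449.8 normalised counts in the control libraries and 541, 496, 498, 568 and 545 in the knockdown libraries. No library of one line entered the range of the other, and the log2 fold change was 0.27 (SE 0.054, edgeR adjusted p = 4.9e-05). *Ergic2* shares 12.4% of its exon bases with *Far2* on the opposite strand, and since the strand setting of the counting is not given in the sources used here, reads of these genes cannot be told apart there. *Ergic1*, which cycles in the same compartment, fell in the same cells, from 3912 to 4161 in the control line to 3299 to 3692 in the knockdown line without overlap (log2 fold change -0.24, SE 0.029, edgeR adjusted p = 5.3e-09). *Ergic3* did not pass the test (0.03, adjusted p = 0.40), although it was called with the GC and length offsets (0.15). *Mcfd2* is the soluble partner with which the lectin *Lman1* carries coagulation factors out of the ER. It rose from 892 to 1063 normalised counts to between 1084 and 1185 (log2 fold change 0.23, SE 0.041, edgeR adjusted p = 9.0e-06), while *Lman1* was at -0.03 (95% interval -0.09 to 0.03). *Lman2*, a related lectin, was at -0.08 (edgeR adjusted p = 0.020) and was called without *Creb3l1* shRNA replicate 2 (0.0027). *Surf4*, the receptor for soluble cargo, did not overlap between the lines (5777 to 5933 against 6031 to 6403) but missed the threshold (log2 fold change 0.06, edgeR adjusted p = 0.047), and passed it with the GC and length offsets (0.11).

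The p24 proteins are small membrane proteins that cycle between the ER and the Golgi and help to select cargo. Of 7 genes 3 were called (42.9%, beside 40.7% of all genes), with *Tmed7* and *Tmed2* higher and *Tmed4* lower. Without non-targeting replicate 2 the number called was 0, and without non-targeting replicate 4 it was 1. *Tmed7* had 2156, 2296, 2398, 2162 and 2390.2 normalised counts in the control libraries and 2761, 2356, 2435, 2578 and 2795 in the knockdown libraries. Replicate 2 of the *Creb3l1* shRNA line fell within the control range, and the log2 fold change was 0.18 (SE 0.048, edgeR adjusted p = 0.0050). That call was lost without non-targeting replicate 1, 2, 3 or 4 or *Creb3l1* shRNA replicate 4, with edgeR adjusted p of 0.0104 to 0.0174. It was also lost with a replicate block (edgeR adjusted p = 0.0107) and with the GC and length offsets, where the log2 fold change was 0.06 (0.092). *Tmed7* shares 838 exon bases with *Ticam2* on the same strand, so reads there could have been counted for either gene. *Tmed4* had 2473, 2584, 2441, 2501 and 2566 normalised counts in the control libraries and 2358, 2315, 2294, 2279.8 and 2397 in the knockdown libraries. The lines did not overlap, with a log2 fold change of -0.11 (SE 0.030, edgeR adjusted p = 0.0020). The call was lost without non-targeting replicate 2 or 5, with edgeR adjusted p of 0.0111 and 0.0106, with library totals (0.019) and with the GC and length offsets, where the log2 fold change was -0.06 (0.063).

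*Tmed2* (0.16, edgeR adjusted p = 0.0042) overlapped between the lines and shares 26.5% of its 75-base words with pseudogenes, so its count is uncertain. Its call was lost without non-targeting replicate 2 or 4 or *Creb3l1* shRNA replicate 1 or 3, with edgeR adjusted p of 0.0116 to 0.0217, and with DESeq2 (0.0117). The 4 p24 genes not called were *Tmed3* (0.07), *Tmed5* (0.10), *Tmed9* (-0.06) and *Tmed10* (0.01). *Tmed3* passed with the GC and length offsets (0.15). *Tmed5*, the lowest of the family at 43.1 normalised counts per kb, spread from 280.4 to 419 normalised counts in the knockdown line.

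The COPI coat is recruited to the Golgi membrane as a whole complex. Of its 9 subunit genes 3 were called (33.3%, beside 40.7% of all genes), 1 higher and 2 lower. *Copa*, the alpha subunit, had 11252, 11144, 11105, 10818 and 11218 normalised counts in the control libraries and 12080.4, 12659.8, 12033, 12455 and 12025 in the knockdown libraries. The lines did not overlap and the log2 fold change was 0.14 (SE 0.022, edgeR adjusted p = 6.9e-07). *Copa* shares 7.51% of its exon bases with *Gm37756* and 2.07% with *Ncstn*, both on the opposite strand. *Copb1*, the beta subunit, had 2892, 2924, 2938, 2989 and 3022 normalised counts in the control libraries and 2609, 2325, 2534, 2789.5 and 2566 in the knockdown libraries. It was lower in every knockdown library, with a log2 fold change of -0.20 (SE 0.034, edgeR adjusted p = 3.8e-06). The log2 ratio of *Copa* to *Copb1* within libraries was 1.86 to 1.96 in the control line and 2.16 to 2.45 in the knockdown line. That pair was chosen after its values were seen, and its difference is given as a description. *Copb2*, the beta prime subunit, was lower with overlap (log2 fold change -0.10, edgeR adjusted p = 0.0023) and lost its call without *Creb3l1* shRNA replicate 3 or 5 (0.0139 and 0.0131) or with library totals (0.023).

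The remaining subunits were not called. They were *Copg1* (-0.0029), *Copg2* (-0.03), *Copz1* (0.02), *Arcn1* (-0.04) and *Cope* (-0.07), and *Cope* passed without *Creb3l1* shRNA replicate 2 (edgeR adjusted p = 0.0080). *Copz2*, the minor zeta subunit, was at 42.4 to 78.2 normalised counts in the control line and 42.3 to 56.4 in the knockdown line (log2 fold change -0.40, SE 0.16, edgeR adjusted p = 0.031). The lowest control value was that of replicate 2, and without it the log2 fold change was -0.51 (edgeR adjusted p = 0.0054). *Copg2* shares 17.8% of its exon bases with *Mest* on the opposite strand. Over the 9 genes the summed level per kb was 5985 ± 70.0 in the control line and 5906 ± 109.1 in the knockdown line (SD, n = 5).

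**Figure D5:**
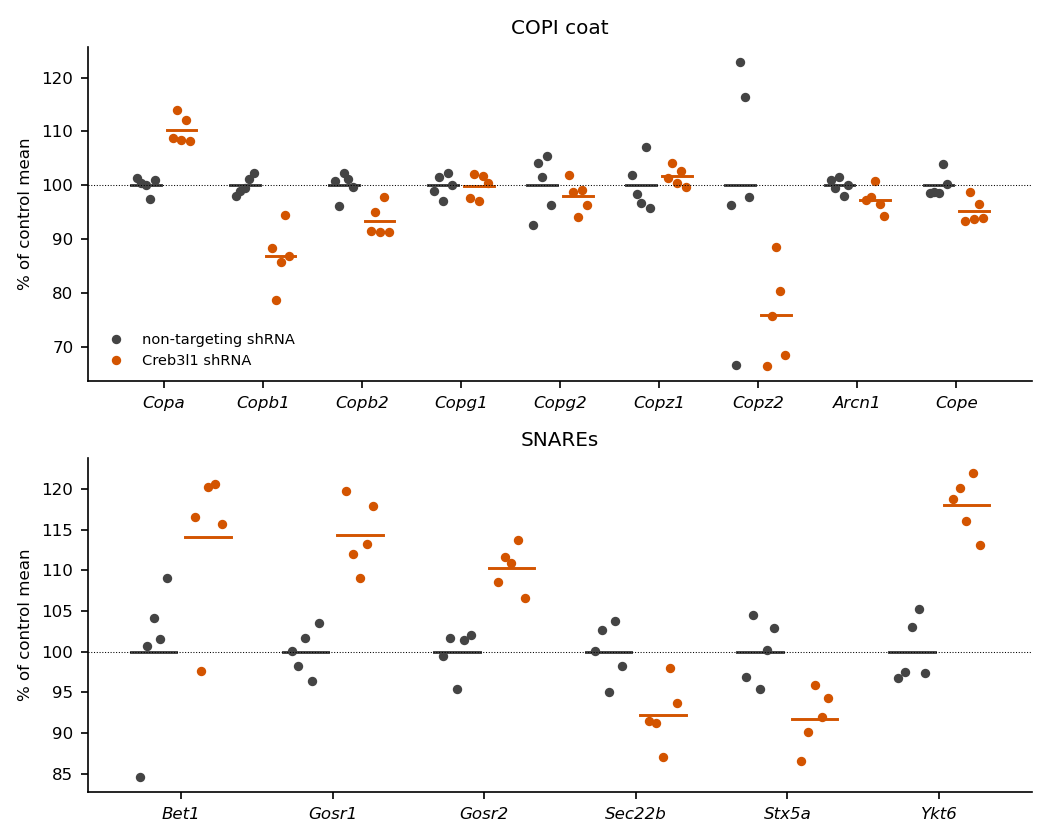
Normalised count of each COPI subunit (top) and each SNARE (bottom) as a percentage of the control mean, in the 5 control (grey) and 5 Creb3l1 shRNA libraries (orange), with the mean of 5 as a line. *Copa* lies above and *Copb1* below the control range, and *Ykt6*, *Gosr1* and *Gosr2* lie above it in every knockdown library.

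None of the 4 ARF genes was called in the main edgeR fit or by DESeq2, and 1 had an unadjusted p under 0.05 in the edgeR test. *Arf1*, the GTPase that recruits COPI, had the highest level of all members per kb, at 5408 ± 93.9 in the control line and 5436 ± 71.5 in the knockdown line (SD, n = 5). Its log2 fold change was 0.01 (95% interval -0.04 to 0.05), and it was called only with the GC and length offsets (0.09). *Arf4*, a second ARF of the Golgi that shares 14.6% of its exon bases with *Pde12* on the opposite strand, was at -0.03, *Arfgap1*, which switches ARF1 off, at -0.02, and *Gbf1*, the exchange factor that switches it on, at 0.07 (edgeR adjusted p = 0.047). The latter was the gene with the low unadjusted p, and its 95% interval was 0.01 to 0.12.

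Of the 4 Golgi tethers 2 were called (50%, beside 40.7% of all genes), and both, *Uso1* and *Gorasp2*, were higher. *Uso1*, the coiled-coil tether p115, had 2399.9, 2273, 2296, 2186 and 2399.6 normalised counts in the control libraries and 2589, 2508, 2518, 2486 and 2586 in the knockdown libraries. The lines did not overlap (log2 fold change 0.13, SE 0.031, edgeR adjusted p = 3.3e-04). *Gorasp2*, a stacking protein of the Golgi, was at 3781 to 3855 in the control line and 3955 to 4226 in the knockdown line (log2 fold change 0.11, edgeR adjusted p = 4.4e-04). It shares 5.55% of its exon bases with *Tlk1* and 4.46% with *Gm26558*, both on the opposite strand. *Golga2*, the partner of p115 on the Golgi, was at 0.03, and *Gorasp1*, which shares 32.1% of its exon bases with *Wdr48* on the opposite strand, at -0.03. The summed level of the 4 tethers per kb was 1820 to 1870 in the control line and 1942 to 2002 in the knockdown line.

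Of the 6 SNAREs 5 were called, beside 40.7% of all genes, and 3 were called with library totals or without non-targeting replicate 2 or 5 or *Creb3l1* shRNA replicate 1. *Ykt6*, a SNARE held on the membrane by lipid anchors, had 2581, 2602, 2748, 2807 and 2597 normalised counts in the control libraries and 3168, 3205, 3095, 3252 and 3015 in the knockdown libraries. Every knockdown library was above every control library, with a log2 fold change of 0.24 (SE 0.030, edgeR adjusted p = 1.1e-08). *Gosr1* (0.20, edgeR adjusted p = 2.6e-04) and *Gosr2* (0.14, adjusted p = 8.0e-05), the Golgi Qb-SNAREs, were also higher without overlap. *Gosr2* shares 4.56% of its exon bases with *C130046K22Rik* on the opposite strand. *Stx5a*, the syntaxin of this route, had 1228, 1325, 1210.2, 1270.4 and 1305 normalised counts in the control libraries and 1098, 1142, 1216, 1166 and 1195 in the knockdown libraries. It was lower on average, but the lines overlapped through replicate 3 of each (log2 fold change -0.13, SE 0.037, edgeR adjusted p = 0.0046). The call was lost without non-targeting replicate 2 or 5 or *Creb3l1* shRNA replicate 1, with edgeR adjusted p of 0.0217 to 0.0245, and with library totals (0.019).

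*Sec22b*, the R-SNARE of ER-derived vesicles, was lower by 0.12 on the log2 scale (log2 fold change -0.12, edgeR adjusted p = 0.0089), close to the threshold. It was lost on leaving out any of 8 libraries, the exceptions being non-targeting replicate 3 and *Creb3l1* shRNA replicate 4, with edgeR adjusted p of 0.0133 to 0.049. The call was also lost with library totals (edgeR adjusted p = 0.033), without the robust option (0.0101) and with DESeq2 (adjusted p = 0.017). *Bet1*, a Qc-SNARE, was at 0.19 (edgeR adjusted p = 0.031) and passed without *Creb3l1* shRNA replicate 2 (0.0052). The R-SNAREs *Ykt6* and *Sec22b* thus moved in opposite directions in these libraries, with the call of *Sec22b* resting on the set of libraries used. Summed over the 6 SNAREs, the level per kb was 2404 to 2521 in the control line and 2630 to 2772 in the knockdown line. In the mean per kb of the control and knockdown lines, *Ykt6* (894 and 1055) and *Gosr2* (816 and 900) rose most. *Gosr1* (143 and 163) and *Bet1* (71.4 and 81.5) rose less, and *Sec22b* (312 and 288) and *Stx5a* (218 and 200) fell.

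Levels per kb set the order of the members in the control line. They divide by the length of all annotated exons of a gene together. That length can exceed the length of a transcript, so the order depends on the annotation. After *Arf1* came *Surf4* (1795 ± 19.6), *Kdelr1* (1660 ± 76.2) and *Kdelr2* (1559 ± 45.6 normalised counts per kb, SD, n = 5). *Kdelr1* was above *Kdelr2* in each of the 5 control libraries, although their ranges overlapped (1602 to 1772 and 1485 to 1603). At the other end stood *Tmed5* (43.1 ± 2.05), *Kdelr3* (40.9 ± 7.11), *Copz2* (28.8 ± 6.34) and *Sec16b* (17.9 ± 0.664), below which lay only the untested *Sec31b*. *Tmed5* and *Kdelr3* did not separate beyond their spread. *Kdelr3* was above *Copz2* in each control library, although their ranges overlapped. The median member was at 457 normalised counts per kb.

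Of 63 further genes of the TRAPP and COG tethers, the ER tether of COPI vesicles, the golgins and other coat factors, 61 were tested. Of those, 23 were called (37.7%, beside 40.7% of all genes), 11 of them higher and 12 lower. Over all genes 20.6% were higher and 20.1% lower. The increases largest among those called were those of *Sec22c* (log2 fold change 0.79), *Cul3* (0.30) and *Cux1* (0.29), and the decreases largest among them were those of *Trappc6a* (-0.47), *Trappc1* (-0.28) and *Bet1l* (-0.27). *Sec22c* encodes a protein related to the member *Sec22b*. It was at 517 ± 36.9 normalised counts in the control line and 894 ± 19.0 in the knockdown line (SD, n = 5, edgeR adjusted p = 4.7e-18).

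Short matches to the shRNA were looked for in the members' transcripts, since a hairpin can act on RNAs other than its target. The sequences of the hairpins are given here because they define the lines.
Creb3l1 shRNA: gagtcggatttcctcaacaat
control shRNA: atcatgttaggcgtacggact
The word TCAACAA, which pairs with bases 2 to 8 of the guide strand, was in the longest transcript of 17 of 56 members (30.4%) and of 23.1% of 14315 genes tested with a transcript. *Kdelr3* and *Sec16b* held none. The longest run of the target in their transcripts was 7 bases, as long as or shorter than that of 82.6% of genes, and in *Creb3l1* it was 21. The longest run among the members was 12 bases, in *Arfgap1*, which was not called.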

How the data were processed

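RNA was sequenced from 5 libraries of each line. The authors selected poly(A) RNA with a stranded kit, aligned paired reads to GRCm38 with STAR and counted them on Ensembl genes with featureCounts. The deposited values are counts of reads per gene as whole numbers without normalisation, and the strand setting of the counting is not given in the sources used here.

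Counts were analysed with edgeR 4.0.16 in R 4.3.3. Genes were kept with filterByExpr and libraries scaled with TMM factors. The robust quasi-likelihood test compared the lines over all genes tested, with Benjamini-Hochberg adjustment and a threshold of 0.01. The SE is the log2 fold change divided by the root of the F statistic. Normalised counts are scaled to the mean effective library size, and levels per kb divide them by the length of all annotated exons of a gene together. Intervals at these depths cover the spread between libraries, and genes with low counts have the widest. Log2 ratios within libraries had 0.5 added to each count and were compared by a two-sided exact permutation test at an adjusted p of 0.05. The code was tested on simulated data. Alternatives were DESeq2 1.42.0, RLE factors, library totals, other filters and thresholds, a replicate block, offsets for GC content and transcript length (splines with 5 degrees of freedom) and each library left out. The fit without the robust option was added after seeing the data.

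Gene positions, overlaps and transcripts came from a GENCODE annotation of GRCm38, an earlier release than that of the authors on the same assembly. Values in every library are given for called members of at least 1.5-fold, for the largest called increase and decrease in each role, and for pairs whose ratio passed with a difference of at least 0.5. The 3 largest called changes in each direction were named from the wider list. Replicate numbers were read from the sample titles. Correlations of same-numbered libraries about their line means were -0.065 to 0.040, so the numbers do not pair the libraries. The members and the lists were chosen with earlier results of these data known.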

Additional observations from a re-analysis of the deposited data

Results flagged for a closer look

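In 6 of 114 groups of 5 libraries (each of the 56 tested members and *Creb3l1* in each line), the highest or the lowest library lay apart from the other 4 by a gap of more than 0.71 of the whole range, where chance alone gives about 1 in 20 groups (5.7 here). *Creb3l1* shRNA replicate 2 accounted for 3 of them. Its normalised count of *Bet1* was 260.1, below 308 to 321 in the other 4 knockdown libraries, its count of *Sec23b* was 2299, above 2227 to 2246, and its count of *Surf4* was 6403, above 6031 to 6123. Non-targeting replicate 1 was the lowest control for *Surf4* (5777, others 5899 to 5933) and for *Tmed10* (5525, others 5729 to 5788). Non-targeting replicate 2 was the highest control for *Sec24a* (1389, others 1225 to 1251). Of these genes *Bet1* passed the edgeR threshold without its outlying library (adjusted p = 0.0052), and the others did not change their call when that library was left out.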

How the results depend on the processing

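Of the 21 calls 12 held in all of the 18 other fits and 9 were lost in at least 1, while 24 members were called in none and 11 in at least 1. No called member changed direction, and 10 of the members not called changed sign in at least 1 fit. The number of members called was 19 with DESeq2, 16 with library totals and 20 to 22 in the other fits with all libraries. Leaving out each library gave 16 to 24 called, 9 to 12 higher and 5 to 12 lower. With library totals 5 members were lower. With an added minimum of 1.5-fold 2 members remained called, 0 of them higher and 2 lower, and 1 gene of the wider list. With a replicate block 22 members were called (10 higher, 12 lower), and the numbers do not pair the libraries. For the paralogue ratios a paired exact test with a replicate block cannot go below p = 0.0625, so 0 pairs could pass beside 5 without it. The pair of *Arf1* and *Arf4* moved from 0.04 to 0.09 with the GC and length offsets. The causes of these changes were not tested. Low counts limit *Kdelr3*, *Sec16b* and *Copz2*, and *Sec31b* was below the filter.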
